A study of Mus musculus with 10 samples.

Results

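Trem2, Gpnmb, Itgax, Cd9, Lgals3, Atp6v0d2, Nceh1, Slc37a2, Lipa and Msr1 are genes of lipid-associated macrophages, the cells that gather in crowns around dying adipocytes in obese fat. They were followed in the epididymal fat pad, a visceral depot beside the testis, as 10 of 17097 genes measured on Affymetrix HT_MG-430 PM arrays. A probe set had to map to exactly 1 of these symbols, and where a gene had several, the one whose average across the 10 arrays was highest stood for it. All values are log2 signals, so a difference of 1 is a doubling. The arrays came from male mice on a C57/Bl6 background, 8 to 12 weeks old when a diet with 45% of its energy as fat began. All groups ate this diet for 16 weeks, and no lean group was analysed here. The groups were wild-type mice (WT, n = 4), mice null for ASC, the inflammasome adaptor encoded by Pycard (ASC-/-, n = 3), and mice null for caspase-1, the inflammasome protease (Casp1-/-, n = 3), with 1 array per mouse. The labels give both null alleles as whole-animal genotypes and name neither the allele nor the number of backcrosses.

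A lipid-associated macrophage takes up lipid and debris from spent adipocytes, breaks the lipid down in lysosomes and passes it on. TREM2, a surface receptor for lipids that signals through the adaptor TYROBP, is needed for this state in obese mouse fat. Itgax encodes CD11c, long used with Cd9 to mark macrophages of the crowns, although dendritic cells also carry CD11c and many cell types make CD9 and galectin-3. In a whole piece of fat, fewer macrophages and less RNA per macrophage cannot be told apart.

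The labels were checked on the targeted genes. Pycard was 3.40 ± 0.27 (SD, n = 3) in ASC-/- against 9.82 ± 0.62 (SD, n = 4) in WT, and Casp1 was 4.85 ± 0.14 (SD, n = 3) in Casp1-/- against 9.32 ± 0.55 (SD, n = 4) in WT. Casp4, which encodes caspase-11 and lies next to Casp1, was also 2.99-fold lower in Casp1-/- (limma, adjusted p = 0.00417), so the Casp1-/- arrays differed from WT in both genes. Adipocyte markers lay high on all arrays (list means of 10.59 to 11.69). The arrays fell into sets of 4 and 6 by the mean of 24 poly-A spike-in probe sets, with a gap of 1.00 between the sets. The high set held the Casp1-/- arrays (7.51 to 8.07) and WT replicate 1 (7.80), and the low set the other WT arrays and the ASC-/- arrays. The difference between the 3' and 5' probe sets of actin, a sign of shortened RNA when large, was 0.82 to 0.98 in Casp1-/-, 0.46 to 1.05 in WT and 0.54 to 0.67 in ASC-/-. Only WT replicate 1 keeps the high spike-in set from being the Casp1-/- genotype itself, and values within the sets are given beside the results.

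Promoter sequence from RefSeq (build GRCm38.p6) was used for 8 of the 10 genes, and the promoters of Atp6v0d2 and Msr1 were not analysed here. Because the genes moved together across the arrays, the 250 bases before each start were searched on both strands for short motifs of factors known in macrophages. TGANTCA, the AP-1 motif, was found in 3 of the 8 (Itgax, Slc37a2 and Trem2) and in 6.75% of 32851 promoters of the same length. CACGTG, the E-box core of the MiT/TFE family that controls lysosomal genes, was found in 1 of the 8 (Nceh1) and in 6.02% of all promoters. The windows of 60 bases around these matches are shown for the genes that carry them, 5′ to 3′ on the gene's strand, with the match in capitals.
Itgax, chr7:128129468-128129527, plus strand: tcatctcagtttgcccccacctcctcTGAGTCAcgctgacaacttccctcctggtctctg
Slc37a2, chr9:37255812-37255871, minus strand: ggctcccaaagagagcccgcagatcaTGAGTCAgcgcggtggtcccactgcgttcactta
Trem2, chr17:48346341-48346400, plus strand: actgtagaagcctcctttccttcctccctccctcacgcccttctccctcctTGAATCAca
Nceh1, chr3:27182944-27183003, plus strand: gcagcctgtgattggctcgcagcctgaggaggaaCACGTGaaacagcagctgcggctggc
The matches began 56, 107, 9 and 26 bases before the annotated start. The longer form TCACGTGA (in 0.785% of promoters) and a separate motif, the M-box TCATGTG (in 3.25%), were found in 0 of the 8. GAGGAAGT, a core bound by PU.1, was found in Nceh1 alone and in 2.44% of promoters. A match is a description of these letters and no evidence that a factor binds there.

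The comparison of Casp1-/- with WT fat showed the larger differences. All 10 genes were lower on every Casp1-/- array than on any WT array, as 9.6% of all genes were. In limma's test 9 of the 10 fell past an adjusted p (Benjamini-Hochberg over all genes) of 0.05, where 3.86% of all genes fell and 8.17% changed in either direction. Cd9 missed the threshold. The median difference of the 10 genes was -2.14, against 0.041 over all genes tested. The falls ranged from 1.73-fold for Lgals3 to 8.85-fold for Atp6v0d2, and Atp6v0d2 had the fifth lowest difference of all 17097 genes.

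**Figure D1:**
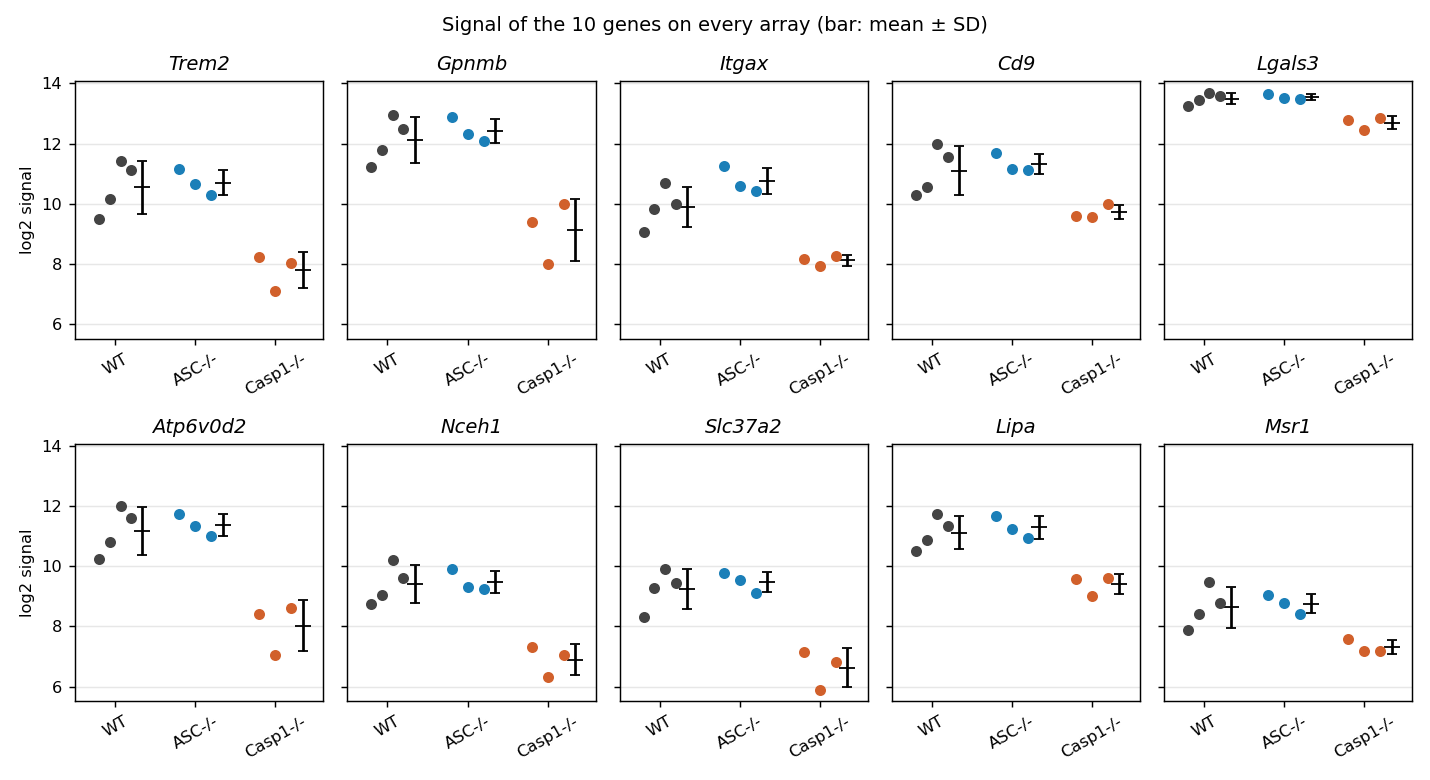
Log2 signal of each of the 10 genes (vertical axes) on the 4 WT, 3 ASC-/- and 3 Casp1-/- arrays, with points from left to right in the order of the replicate numbers and the bar at the mean ± SD. The Casp1-/- points lie below all WT points for every gene, and the ASC-/- points lie within the WT range except for Itgax on replicate 1.

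Trem2 was 9.48, 10.14, 11.40 and 11.13 on WT replicates 1 to 4, 11.15, 10.66 and 10.29 on the ASC-/- arrays, and 8.22, 7.11 and 8.04 on the Casp1-/- arrays. The lowest WT array thus stood 1.26 above the highest Casp1-/- array, while WT and ASC-/- overlapped. The fall in Casp1-/- was 2.75 ± 0.47 on the log2 scale (SE), or 6.72-fold (limma, adjusted p = 0.0149). This value comes from a probe set with a mean of 9.76. A further probe set of Trem2 had a mean of 3.47, near the background controls (array medians of 2.91 to 3.15), and differed by -0.08 (adjusted p = 0.69 with all probe sets tested). Gpnmb, a transmembrane glycoprotein of lysosome-rich macrophages, was 11.22, 11.78, 12.95 and 12.47 in WT, 12.87, 12.33 and 12.07 in ASC-/- and 9.39, 7.99 and 9.99 in Casp1-/-. Its Casp1-/- arrays were the most scattered of any of the 10 genes (SD 1.03, n = 3), yet the highest of them lay 1.23 below the lowest WT array. Gpnmb fell 7.91-fold (log2 difference -2.98 ± 0.51, SE; limma, adjusted p = 0.0161). A further Gpnmb probe set is shared with another gene and was left out.

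The surface markers followed. Itgax was 9.06, 9.84, 10.68 and 10.001 in WT, 11.24, 10.57 and 10.42 in ASC-/- and 8.17, 7.92 and 8.25 in Casp1-/-. It was the gene among the 10 whose ASC-/- arrays sat highest against WT, and its Casp1-/- arrays were the least scattered (SD 0.18, n = 3). Itgax fell 3.44-fold in Casp1-/- (log2 difference -1.78 ± 0.34, SE; limma, adjusted p = 0.0202). Cd9, a tetraspanin, was 10.29, 10.56, 12.00 and 11.55 in WT, 11.69, 11.14 and 11.12 in ASC-/- and 9.59, 9.56 and 9.98 in Casp1-/-. Its WT arrays spread widely (SD 0.81, n = 4), and the lowest of them stood 0.31 above the highest Casp1-/- array. The log2 difference of Cd9 was -1.39 ± 0.38 (SE, 95% interval -2.24 to -0.54) with an adjusted p of 0.0541 in limma. Msr1, the scavenger receptor that takes up modified lipoproteins, was 7.87, 8.42, 9.47 and 8.77 in WT, 9.06, 8.80 and 8.43 in ASC-/- and 7.58, 7.19 and 7.19 in Casp1-/-. The gap between its lowest WT and highest Casp1-/- array, 0.29, was the narrowest of the 10 genes. Msr1 fell 2.49-fold (log2 difference -1.32 ± 0.33, SE; limma, adjusted p = 0.0411).

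Lgals3 encodes galectin-3, a secreted lectin that marks damaged lysosomes and phagocytes. It was 13.25, 13.43, 13.69 and 13.57 in WT, 13.66, 13.51 and 13.48 in ASC-/- and 12.78, 12.44 and 12.86 in Casp1-/-. All groups held to narrow ranges (SD 0.10 to 0.22), and the Casp1-/- arrays lay apart from the rest by 0.39 or more. Its fall of 0.79 ± 0.13 (SE), or 1.73-fold, was the smallest of the 10 (limma, adjusted p = 0.0138).

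Among the genes of lysosomes and metabolism, Atp6v0d2, Slc37a2 and Nceh1 held 3 of the 5 largest falls. Atp6v0d2, the subunit of the vacuolar proton pump known from osteoclasts and macrophages, was 10.25, 10.82, 12.01 and 11.61 in WT, 11.73, 11.36 and 11.02 in ASC-/- and 8.42, 7.04 and 8.62 in Casp1-/-. Its gap of 1.63 between the lowest WT and the highest Casp1-/- array was the widest of the 10 genes. Atp6v0d2 fell 8.85-fold (log2 difference -3.15 ± 0.48, SE; limma, adjusted p = 0.0112), and its other probe set differed by -3.62. Nceh1, a hydrolase of neutral cholesterol esters, was 8.76, 9.04, 10.20 and 9.60 in WT, 9.90, 9.31 and 9.23 in ASC-/- and 7.30, 6.31 and 7.06 in Casp1-/-. It fell 5.69-fold (log2 difference -2.51 ± 0.36, SE; limma, adjusted p = 0.0105), with -2.51 and -2.37 at its other probe sets. Slc37a2, a sugar-phosphate carrier of macrophages, was 8.32, 9.27, 9.92 and 9.43 in WT, 9.78, 9.55 and 9.10 in ASC-/- and 7.16, 5.90 and 6.81 in Casp1-/-. The fall was 6.11-fold (log2 difference -2.61 ± 0.39, SE; limma, adjusted p = 0.0111). Slc37a2 lies on chromosome 9, as Casp1 does, with 245 protein-coding genes between them. Lipa, the acid lipase that frees cholesterol and fatty acids in lysosomes, was 10.51, 10.88, 11.74 and 11.36 in WT, 11.69, 11.25 and 10.95 in ASC-/- and 9.58, 9.01 and 9.62 in Casp1-/-. It fell 3.29-fold (log2 difference -1.72 ± 0.30, SE; limma, adjusted p = 0.0161). Over the 9 further probe sets of these genes, all differed downwards, as 44.7% of all 28898 probe sets did, and 7 fell past the threshold, as 3.07% of all probe sets did. The exceptions were the dim Trem2 probe set above and a dim Msr1 probe set (mean 3.70, log2 difference -0.60, adjusted p = 0.112).

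These falls had a limit in the arrays themselves. With the spike-in set as a block, Casp1-/- is compared with WT replicate 1 alone, and the differences kept their direction at -2.22 for Atp6v0d2, -2.10 for Gpnmb, -1.87 for Nceh1, -1.70 for Slc37a2, -1.69 for Trem2, -1.11 for Lipa, -0.94 for Itgax, -0.58 for Cd9, -0.56 for Lgals3 and -0.55 for Msr1. None of the 10 passed limma's test in that fit (adjusted p of 0.152 to 0.72), in which 0.702% of all genes did. The count also dropped to 0 of 10 without Casp1-/- replicate 2 (log2 differences of -2.65 to -0.66, adjusted p of 0.0528 to 0.156), where 0.374% of all genes changed in either direction. That array was the lowest of all 10 for every one of the 10 genes, as it was for 11.3% of all genes. It also held the highest mean of the epididymis markers (4.80, against 3.32 to 4.20 on the other arrays), and the part of this in the result was not tested.

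**Figure D2:**
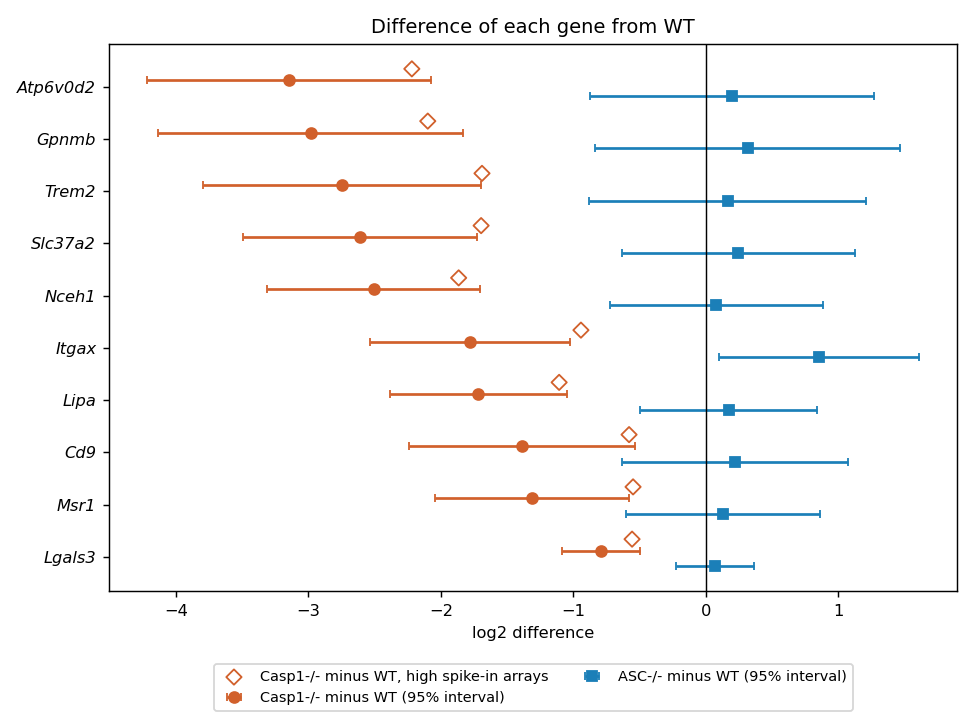
Log2 difference from WT (horizontal axis) of each gene in Casp1-/- (circles) and ASC-/- (squares) with 95% intervals, and of Casp1-/- against WT replicate 1 only (open diamonds). Casp1-/- circles run from -3.15 to -0.79 and the diamonds from -2.22 to -0.55, while the ASC-/- intervals include 0 except that of Itgax.

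ASC-/- fat did not show such falls. The differences from WT ran from 0.07 for Lgals3 to 0.85 for Itgax, with a median of 0.18 against 0.005 over all genes. None of the 10 passed the threshold in limma, where 0.0351% of all genes did, and all 10 overlapped WT, where 1.33% of all genes lay above WT without overlap. At an unadjusted p under 0.05, 1 of the 10 was higher (Itgax), against 0.971% of all genes. The intervals bound what a change could have been. For Trem2 the difference was 0.16 (95% interval -0.88 to 1.21), for Gpnmb 0.32 (-0.84 to 1.47), for Atp6v0d2 0.20 (-0.87 to 1.27), and for Lgals3 0.07 (-0.23 to 0.36), so a doubling of Trem2 lay inside its interval. WT replicate 1 was the lowest WT array for all 10 genes, as it was for 29.5% of all genes. Without this array the sign of 8 of the 10 differences turned. Trem2 then differed by -0.19 and Slc37a2 by -0.06, while Itgax stayed at 0.57 and Gpnmb at 0.02.

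Itgax stood somewhat apart from the rest in ASC-/-. It differed by 0.85 ± 0.34 (SE, 95% interval 0.10 to 1.61, unadjusted p = 0.0308, adjusted p = 1 in limma), and by 0.57 to 1.11 with any single array left out. Its ASC-/- arrays were at 10.42 to 11.24 and its WT arrays at 9.06 to 10.68, so WT replicate 3 lay inside the ASC-/- range. Itgax lies on chromosome 7 with 2 protein-coding genes between it and Pycard, the targeted gene of this line. Whether that neighbourhood bears on its signal was not tested.

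Both comparisons above use the same 4 WT arrays. A direct comparison of the null genotypes, which is also the test of whether their differences from WT differ, had all 10 genes higher in ASC-/- than in Casp1-/-, each past the threshold in limma (adjusted p of 0.0106 to 0.0448). Of all genes, 3.85% were higher past the threshold and 7.39% in either direction. The arrays of the groups did not overlap for any of the 10, as for 17.3% of all genes in that direction. The difference was 3.34 for Atp6v0d2 (10.1-fold), 3.30 for Gpnmb (9.85-fold), 2.91 for Trem2 (7.53-fold) and 2.63 for Itgax (6.20-fold). It was smallest for Lgals3, at 0.86 (1.81-fold), and Cd9, which had missed the threshold against WT, was 3.04-fold higher (adjusted p = 0.0448). With the spike-in set as a block the differences were smaller, at 0.42 to 2.12, and 0 of 10 passed (adjusted p of 0.301 to 0.883). These groups share no spike-in set, so that fit links them through the WT arrays alone. Lost precision and a part of the spike-in set in the differences cannot be told apart there. Of all genes 0.368% changed in that fit. The count was also 0 without ASC-/- replicate 1 (adjusted p of 0.0527 to 0.164, 0.275% of all genes) or Casp1-/- replicate 2 (0.0505 to 0.138, 0.398% of all genes). It was 3 without ASC-/- replicate 2 (0.901% of all genes). With the actin difference as a covariate, Itgax, Atp6v0d2, Nceh1 and Slc37a2 passed and the other 6 did not (adjusted p of 0.031 to 0.177 over the 10), with 1.35% of all genes changed.

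The 10 genes rose and fell together from array to array. The 3 Casp1-/- arrays were the lowest of all for each of them, as for 8.33% of all genes. WT replicate 1 came next for each of them, as for 5.52% of all genes. WT replicate 3 was the highest array for 9 of the 10 (19.7% of all genes), the exception being Itgax, highest on ASC-/- replicate 1. Over the 10 arrays the 45 pairs of genes had Pearson correlations of 0.913 to 0.998 (median 0.965). After each genotype's mean had been subtracted the correlations were 0.707 to 0.991 (median 0.907). These are descriptions over 10 arrays that share the spike-in sets and the macrophage content of each fat piece. The mean of the 10 genes ran from 9.90 on WT replicate 1 to 11.41 on WT replicate 3, against 8.05 to 8.84 on the Casp1-/- arrays and 10.61 to 11.28 on the ASC-/- arrays.

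**Figure D3:**
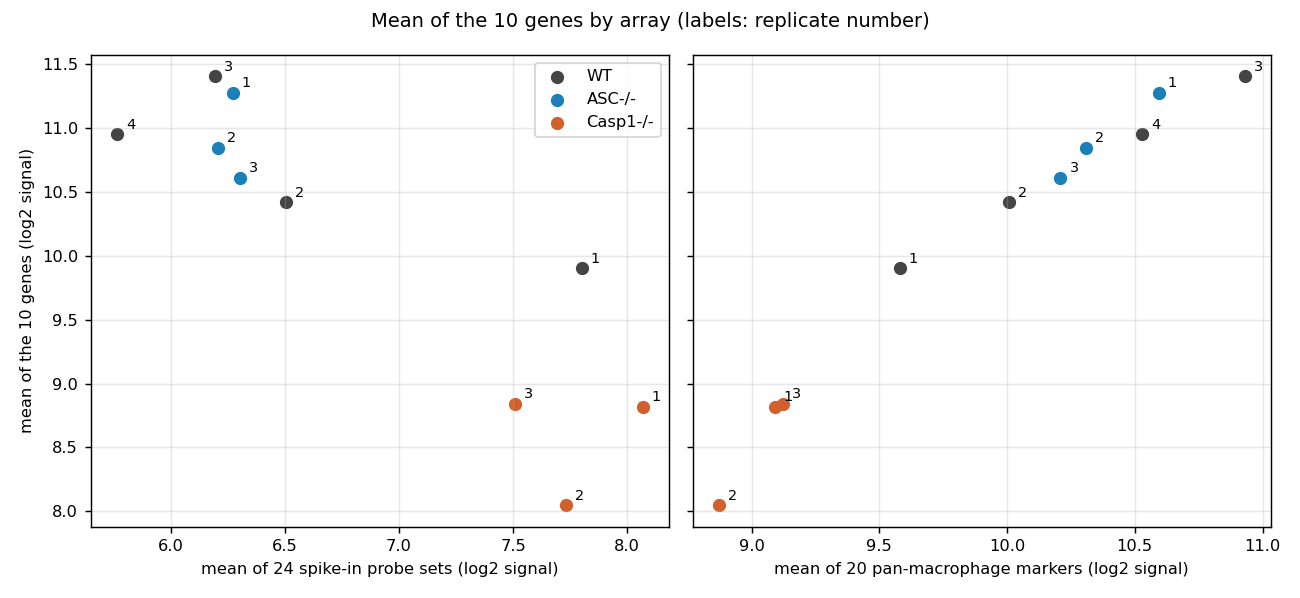
Mean log2 signal of the 10 genes on each array (vertical axes) against the mean of the spike-in probe sets (left) and of the 20 pan-macrophage markers (right), with the replicate number beside each point. WT replicate 1 lies with the Casp1-/- arrays on the left axis at 7.80 and between Casp1-/- and the other arrays on the right.

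The genes most like the 10 in pattern were sought among all others. By mean correlation over the 10 arrays they were Bcl2a1a (0.984), C3ar1, Lpxn, Tyrobp, Cd84, Efhd2, Blnk, Lcp1, Capg and Gas2l3 (0.981). By deviations from the genotype means, Cd84 (0.948) and Bcl2a1a (0.947) led, followed by Hk3, Tyrobp, P2ry14, Cd44, Lpxn, C3ar1, Irf2bp2 and Cd300c2 (0.940). Tyrobp, the signalling partner of TREM2, and C3ar1, a complement receptor of myeloid cells, stood in both lists, as did Bcl2a1a, Lpxn and Cd84. Within the 10 genes Lipa was the most like the others (mean correlation 0.981) and Cd9 the least (0.939).

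Partners of TREM2 were lower too. Of 11 measured genes of TREM2 signalling, 7 fell in Casp1-/- and 0 rose, with a median difference of -1.15. Of all 17097 genes, 660 fell and 737 rose past the threshold, which is also the background of the list counts below. Tyrobp fell 2.84-fold, from 12.47 ± 0.44 (SD, n = 4) to 10.97 ± 0.28 (SD, n = 3; limma, adjusted p = 0.0116). Hcst, the sister adaptor DAP10, fell 1.91-fold (adjusted p = 0.0172), and Lat2, an adaptor at the membrane, 4.77-fold (adjusted p = 0.0221). Adam17, a sheddase that cuts TREM2 from the surface, fell 1.81-fold (adjusted p = 0.0214). Syk, the kinase that TYROBP recruits, differed by -1.13 (adjusted p = 0.112) from a WT level of 4.87, within the range of the background controls.

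Among 19 other measured genes of lipid-associated macrophages, 11 fell and 0 rose (median difference -0.40). Mmp12, an elastase of macrophages, fell 5.69-fold, and Capg, an actin-capping protein of phagocytes, 3.94-fold (adjusted p = 0.0205 and 0.0184 in limma). Plin2, which coats lipid droplets, fell 1.64-fold with a smaller error (log2 difference -0.71 ± 0.093, SE; adjusted p = 0.00829), and Cstb, an inhibitor of cathepsins, 1.51-fold (adjusted p = 0.011). Among the genes of this list that did not pass, Lpl, the lipase of lipoproteins, differed by 0.09 (adjusted p = 0.374), Cd36, a fatty acid transporter, by -0.06 (adjusted p = 0.608) and Apoe by 0.20 (adjusted p = 0.488). Lpl is also among the adipocyte markers checked below, so its level in whole fat is not that of macrophages alone. Cd63, Spp1 and Dcstamp of this list were not analysed here.

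For the proton pump, 4 of 14 measured subunits other than Atp6v0d2 fell and 0 rose (median -0.32). Tcirg1, the a3 subunit of lysosomes and osteoclasts, fell 3.09-fold, Atp6v1a 1.90-fold, Atp6v1b2 1.83-fold and Atp6v0b 1.79-fold (limma, adjusted p of 0.0221, 0.0279, 0.0259 and 0.0431). Atp6v0d1, the widely made isoform that takes the same place in the pump as Atp6v0d2, was 10.96 in WT and 11.002 in Casp1-/- (difference 0.04, adjusted p = 0.72). Of 14 measured genes of lipid uptake, hydrolysis and export, 3 fell and 0 rose. Besides Plin2 these were Abcg1, which exports cholesterol (2.18-fold, adjusted p = 0.0367), and Npc1, which moves cholesterol out of lysosomes (2.12-fold, adjusted p = 0.0412).

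The regulators were mixed. Of 11 measured, Spi1, which encodes the myeloid factor PU.1, fell 4.94-fold (limma, adjusted p = 0.0252), while Pparg, Rxra and Bhlhe40 rose 1.84-fold, 1.75-fold and 1.76-fold (adjusted p of 0.0234, 0.0242 and 0.046). Pparg and Rxra are also factors of adipocytes. Mitf, which drives genes such as Gpnmb and Atp6v0d2 in other cells, differed by -1.11 and missed the threshold (adjusted p = 0.0551). Among 8 osteoclast and giant cell genes, Ctsk, a collagen-cutting cathepsin, fell 3.64-fold (adjusted p = 0.0223) and 0 rose. Tnfrsf11a, the receptor RANK, fell from 6.12 in WT to 4.27 in Casp1-/- (adjusted p = 0.00967), a level no brighter than some background controls, and no fold is given. In ASC-/- against WT, 0 genes of any of these lists passed the threshold, where 0.0351% of all genes did. In Casp1-/- with the spike-in set as a block, 0 genes of any list passed either, where 0.702% of all genes did. The medians were then -0.55 for TREM2 signalling, -0.24 for the other lipid-associated genes, -0.23 for the pump and -0.60 for the pan-macrophage markers described next. Without Casp1-/- replicate 2, Plin2 and Tnfrsf11a were the only list genes to pass, where 0.374% of all genes did. The same 4 medians were then -1.02, -0.37, -0.30 and -1.23.

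**Figure D4:**
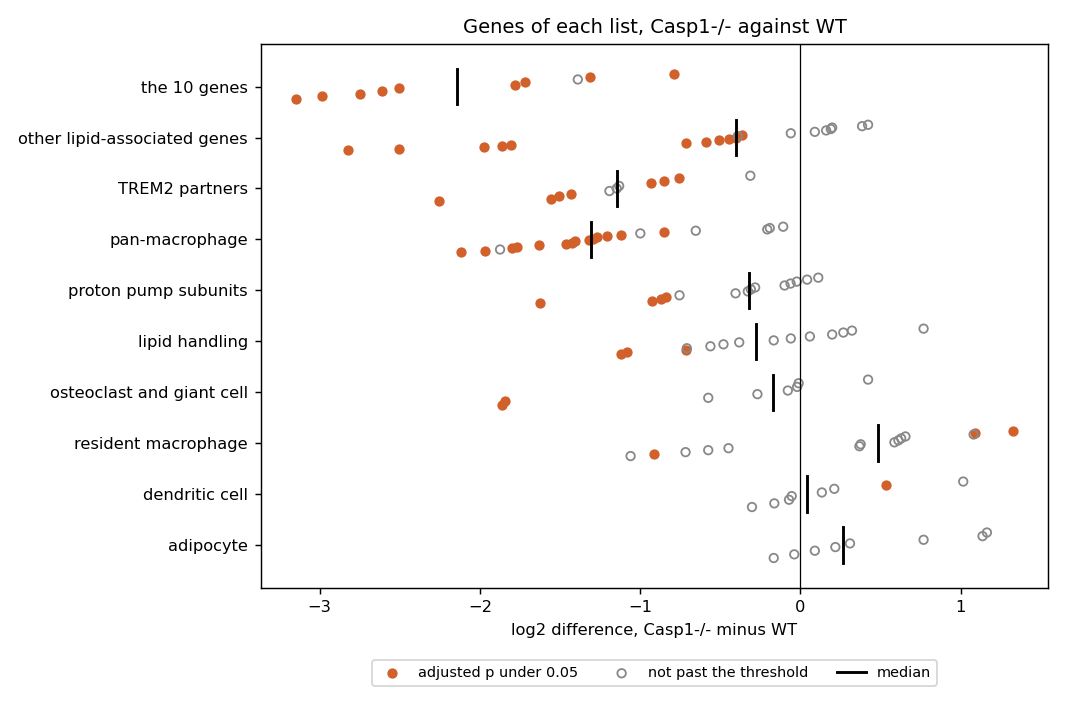
Log2 difference between Casp1-/- and WT (horizontal axis) for each gene of 10 lists, filled where the adjusted p was under 0.05, with the median of each list as a bar. The 10 genes have a median of -2.14, the pan-macrophage markers of -1.31, the resident macrophage markers of 0.48 and the adipocyte markers of 0.26.

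General macrophage markers moved with the 10 genes. Of 20 pan-macrophage markers, 14 fell in Casp1-/- and 0 rose (median -1.31), led by Cd68 (4.33-fold), Adgre1, an adhesion receptor of macrophages (3.92-fold), Fcgr1 (3.48-fold) and Mpeg1 (3.09-fold), with adjusted p of 0.0137 to 0.0172 in limma. Their mean was 8.87 to 9.12 on the Casp1-/- arrays, 9.58 to 10.93 in WT and 10.21 to 10.59 in ASC-/-. Lyz2 (-0.21, adjusted p = 0.258) and Mertk (-0.11, adjusted p = 0.836) did not pass. Of 14 markers of resident fat macrophages, Clec10a fell, Ccl24 and Mgl2 rose, and the median was 0.48, with 9 above WT and 5 below. Dendritic cell markers, which could share Itgax, had list means of 4.79 to 5.06 on all arrays, close to the top of the background controls, and 1 of 8 passed (Itgae, higher by 0.54).

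To set the 10 genes against macrophage content, each array's pan-macrophage mean was subtracted from its values. On this scale 7 of the 10 stayed below WT on every Casp1-/- array and 3 (Cd9, Msr1 and Lgals3) overlapped. Of all genes, 0.813% lay below WT without overlap on the same scale. The reference was itself lower on the Casp1-/- arrays, so subtracting it raised genes there that had not fallen, and lowered this share. Before the subtraction the share was 9.6%, and the 0.813% does not show how rare the pattern is. The remaining differences were -1.91 for Atp6v0d2, -1.75 for Gpnmb, -1.52 for Trem2, -1.38 for Slc37a2, -1.27 for Nceh1, -0.55 for Itgax and -0.48 for Lipa. They were -0.16 for Cd9 and -0.08 for Msr1, and 0.44 for Lgals3, and the median was -0.91 (-0.996 to -0.79 with any WT or Casp1-/- array left out, and -0.85 against WT replicate 1 alone). With 3 arrays against 4 and a reference chosen from the same arrays, these are descriptions without a test. The size turned on the reference. With Adgre1 alone in its place the median was -0.17, since 5 of the 10 genes had a larger fall than Adgre1 and 5 a smaller one. Against Adgre1 the differences were -1.17 for Atp6v0d2, -1.01 for Gpnmb, -0.78 for Trem2, -0.64 for Slc37a2 and -0.54 for Nceh1, and 0.19 for Itgax, 0.25 for Lipa, 0.58 for Cd9, 0.66 for Msr1 and 1.18 for Lgals3.

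**Figure D5:**
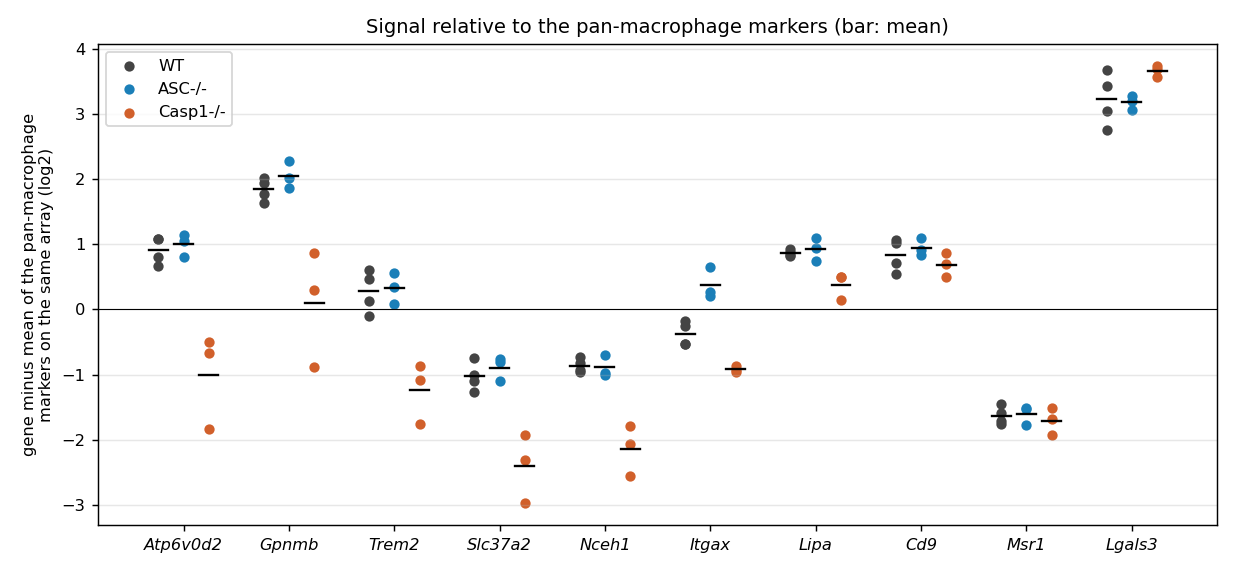
Log2 signal of each gene minus the mean of the 20 pan-macrophage markers on the same array (vertical axis), by genotype, with the bar at the mean of each group. Atp6v0d2, Gpnmb, Trem2, Slc37a2, Nceh1, Itgax and Lipa lie lower on all Casp1-/- arrays than on any WT array, and Itgax lies higher on all ASC-/- arrays.

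In ASC-/- the same subtraction left the genes near WT, with Itgax as the exception. Relative to the markers Itgax was -0.52, -0.17, -0.25 and -0.53 on WT replicates 1 to 4, 0.65, 0.26 and 0.21 on the ASC-/- arrays, and -0.92, -0.96 and -0.87 on the Casp1-/- arrays. The groups did not overlap for Itgax on this scale, and ASC-/- stood 0.74 above WT. Of all genes, 0.0994% lay above WT in ASC-/- without overlap here, against 1.33% before the subtraction, where Itgax overlapped WT. Subtraction adds the spread of the reference to genes that do not follow it, so the smaller share does not show how rare the pattern is. The other genes differed from WT by between -0.04 for Lgals3 and 0.21 for Gpnmb.

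Other cell types were checked through their markers. Of 8 adipocyte markers 0 passed the threshold in Casp1-/- (median 0.26), and their mean was 11.63 to 11.69 on the Casp1-/- arrays against 10.59 to 11.55 in WT and 11.08 to 11.35 in ASC-/-. Of the endothelial (10 measured), mesothelial (8), lymphocyte (11), neutrophil and monocyte (9) and epididymis (10) markers, 0 passed, with medians of 0.50, 0.80, -0.01, 0.01 and -0.01. Of 9 progenitor and fibroblast markers, Col1a1 fell 2.10-fold (limma, adjusted p = 0.0485). The part of these shifts in the falls of the 10 genes was not tested.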

How the data were processed

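The authors deposited log2 signals. The submitters' processing notes name RMA without a version. RMA puts all arrays on a common distribution, so a change in RNA per cell that all genes share leaves no trace. It also compresses differences near background. A genome build was not given in the sources used here. Precision is limited by the number of arrays. The table held 45141 probe sets, of which 104 were controls, 28898 had 1 gene symbol, 551 several and 15588 none. The symbols came from the platform annotation and were updated through gene identifiers with a RefSeq table of GRCm38.p6. Where a gene had several probe sets (7180 genes), the brightest on average was used, with no filter on dim genes. The 19 probe sets of the 10 genes with 1 symbol gave 5 genes with 1 probe set and 5 with more. The background was read from 23 control probe sets.

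The test was limma 3.58.1 (R 4.3.3) on all 10 arrays, with a mean for each of the 3 genotypes and default empirical Bayes (7 residual and 2.43 prior degrees of freedom). Tests were two-sided, with Benjamini-Hochberg adjustment over 17097 genes and a threshold of 0.05. Replicates are separate mice of a genotype per the labels. The p-values set a genotype difference against the spread between mice within genotypes. In the main fit they take no account of the spike-in sets. The script was tested on simulated data with independent noise for each gene and no spike-in sets. That test checks the fit itself and does not bear on the calls in these arrays. The 10 genes and the 17 gene lists (222 entries, 194 measured) were chosen with earlier results of these data known, so counts over a list are descriptions. From each list the genes named were those past the threshold, at most 4 with the smallest p. Apoe, Lpl, Cd36, Atp6v0d1, Mitf, Syk, Lyz2, Mertk and Casp4 were named after their values had been seen.

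The alternatives were quantile normalization, median centring, leaving out the dimmest 40% of genes, averaging a gene's probe sets, testing every probe set, trended and robust moderation, array weights, fitting the compared groups alone, the replicate number as a block, the spike-in set as a block or its sets alone, the actin 3' minus 5' signal as a covariate, and leaving out each array. The alternatives to the macrophage reference, and the list counts with the spike-in block and without Casp1-/- replicate 2, were added after seeing the data.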

Additional observations from a re-analysis of the deposited data

How the results depend on the processing

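All 10 genes stayed lower in Casp1-/- than in WT, and higher in ASC-/- than in Casp1-/-, under every alternative run. What changed was the count past the threshold in limma. For Casp1-/- against WT (9 genes, median -2.14) the count was 8 with only these groups. It was 9 or 10 under the other normalizations, filters and fits, apart from the blocks, the high spike-in set alone and single arrays left out. The share of all genes called moved too, from 8.17% to 2.74% with only these groups, 16.7% with dim genes left out and 17.5% with array weights. The count was 0 with the spike-in set as a block (median -1.40, 0.702% of all genes called). With the high set alone, where WT replicate 1 is the only WT array, the median was also -1.40. With a single array left out the count was 0 to 10 (medians -2.39 to -1.88), and the share of all genes moved from 0.374% to 17.7%. For ASC-/- against Casp1-/- (10 genes, median 2.61) the count was 0 with the spike-in block (median 1.51, 0.368% of all genes). It was 4 with the actin covariate (median 2.15, 1.35% of all genes). With a single array left out it was 0 to 10, and the share of all genes moved from 0.275% to 15.3%. The labels do not say whether the replicate numbers pair the mice. Between their deviations, 9 pairs of arrays with the same number had correlations of -0.26 to 0.19. The 24 pairs with different numbers had -0.38 to 0.39. With so few arrays in a group these values cannot decide whether mice were paired. With the replicate number as a block 0 genes passed in each contrast (medians -2.09, 0.33 and 2.61), and over all genes 9, 3 and 19 passed. For ASC-/- against WT 0 of the 10 passed under any alternative. There the signs turned with the spike-in block, with the low set alone and without WT replicate 1, which all give -0.19 for Trem2, -0.053 for Cd9, -0.0115 for Lgals3, -0.11 for Atp6v0d2, -0.13 for Nceh1, -0.0615 for Slc37a2, -0.033 for Lipa and -0.13 for Msr1. With the actin covariate they were -0.19, -0.13, -0.001, -0.11 and -0.14 for Trem2, Cd9, Lgals3, Atp6v0d2 and Nceh1, -0.042 for Lipa and -0.12 for Msr1. With array weights they were -0.14 for Trem2, -0.024 for Cd9, -0.029 for Atp6v0d2 and -0.083 for Nceh1. With a single array left out the ranges were -0.19 to 0.45 for Trem2, -0.053 to 0.52 for Cd9, -0.0115 to 0.13 for Lgals3, -0.11 to 0.48 for Atp6v0d2, -0.13 to 0.34 for Nceh1, -0.0615 to 0.47 for Slc37a2, -0.033 to 0.38 for Lipa and -0.13 to 0.41 for Msr1. The median relative to the pan-macrophage markers (-0.91) was -0.60 with means over probe sets and -0.17 with Adgre1 alone. The cause of these changes was not tested. Signals near the background controls limit Syk, Itgae, Tnfrsf11a and the dim probe sets of Trem2 and Msr1.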
